A study of Mus musculus with 6 samples.

Results

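Kinesins are the motor proteins that walk along microtubules on ATP, most of them outward from the cell body, and in neurons they carry vesicle precursors, mitochondria, receptors and RNA granules into axons and dendrites. Other members of the family build the mitotic spindle, split daughter cells, act in motile cilia, limit the length of cilia, or take microtubules apart. The kinesin genes described here were chosen by name only: every non-control probe whose gene name in the scanner files is Kif followed by a number and any further letters or digits. The rule found 37 genes, covered by 61 of 55681 probes, out of 34741 genes on the array. The files describe 59 of these 61 probes as kinesin, and the other 2 belong to Kif14 and Kif26b, which also have a probe so described. The rule leaves out relatives with other names, such as the Kifc motors, which are given with the partners.

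The arrays measured total RNA of mouse brain synaptosomes, which are pinched-off nerve terminals isolated from homogenised brain, in 3 knock-in and 3 wild-type samples, each on 1 one-colour Agilent array. The series title concerns FMR1, miR-101, miR-129-5p, miR-221 and the tremor/ataxia syndrome of FMR1 repeat carriers, so the comparison asks which synaptosomal transcripts differ between the groups. The allele, strain, age and sex of the mice are not given in the sources used here, and the samples called knock-in here carry knock-out as their genotype entry, although sample names and design text use knock-in. Labels do not say that samples came from separate animals, so p-values cover only the variation among these samples, and that variation may be technical. All 6 samples carry an RNA integrity number of 10. The RNA amount is 0.2 µg for 5 of them and is written as 0.0 µg for knock-in replicate 1.

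The 3 knock-in arrays and wild-type replicate 3 shared slide 1, while wild-type replicates 1 and 2 were on slide 2. The 75th percentile of the signal was 823 to 910 on slide 1 and 578 to 580 on slide 2, and each array was scaled by it. Fmr1 read 2.08, 2.24 and 2.27 in knock-in against 1.42, 1.33 and 1.37 in wild type, as log2 over that percentile (limma's adjusted p = 0.198). All 10 genes of the nerve terminal list were detected, Syp, Snap25 and Syn1 among them, where 60.4% of all genes on the array were. The list also holds the postsynaptic genes Dlg4 and Camk2a. Detection was not particular to terminals: all markers of oligodendrocytes (10), astrocytes (8), microglia (8), ependymal cilia (10) and striatal neurons (12) were detected too. For endothelium it was 6 of 7 and for choroid plexus 7 of 8.

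A gene was called detected when at least 1 of its probes was well above background, by the scanner software, on 3 or more of the 6 arrays. By this measure 29 of the 37 kinesin genes were detected (78.4%, against 60.4% of all genes on the array). The other 8 were Kif12, Kif14, Kif15, Kif18a, Kif18b, Kif23, Kif2b and Kif2c. No array had a probe of Kif12, Kif14, Kif15, Kif18b, Kif2b or Kif2c well above background, whereas Kif18a passed on 2 arrays and Kif23 on 1. Most of these silent genes are known for cell division: Kif14 and Kif23 act in cytokinesis, Kif15 in the spindle, Kif18a and Kif18b at spindle microtubule ends, and Kif2c at centromeres. Other kinesins of cell division were detected, namely Kif11, Kif20a, Kif20b, Kif22 and Kif4, so division genes were not silent as a class. "Silent" is a statement about these probes at this signal and is not a statement that the transcript is absent.

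The motors of intracellular transport were nearly all present. All 3 kinesin-1 genes, all 4 kinesin-2 genes and 6 of 7 kinesin-3 genes were detected, the exception being Kif14, the cytokinesis gene named above. All 5 genes of kinesin-4, both of kinesin-9 and both of kinesin-11 were also detected. In kinesin-6, 2 of 3 genes passed, in kinesin-13 2 of 4, in kinesin-8 1 of 3 and in kinesin-12 0 of 2. Markers of dividing cells were detected for 10 of 14 genes, among them Mki67.

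Between the groups, 0 of the 29 detected kinesin genes passed limma's adjusted p of 0.05, against 0.00954% of the 20975 genes tested, which is 2 genes. At an unadjusted p under 0.05 the count of kinesins was also 0, where 10.9% of all genes had one. The adjusted p-values of the 29 lay between 0.494 and 0.966. On the log2 scale 12 kinesins were higher in knock-in and 17 lower. The split depended on the processing: 18 of 29 were higher with quantile normalization, 17 with the authors' value table, 17 with slide as a block and 5 with normexp background correction. In the processing used here the family had a median difference of -0.04 against -0.05 over all genes, and a median absolute difference of 0.12 against 0.16. The differences ranged from -0.41 for Kif13b to 0.43 for Kif20a. The 95% interval lay between -1 and 1, a doubling or a halving, for 27 of the 29 genes, and between -0.5 and 0.5 for 16 of them. Wild-type arrays were the more variable: the median SD was 0.19 in wild type and 0.09 in knock-in (n = 3 each), and 22 of 29 kinesins had the larger SD in wild type, as had 71.1% of all genes.

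**Figure D1:**
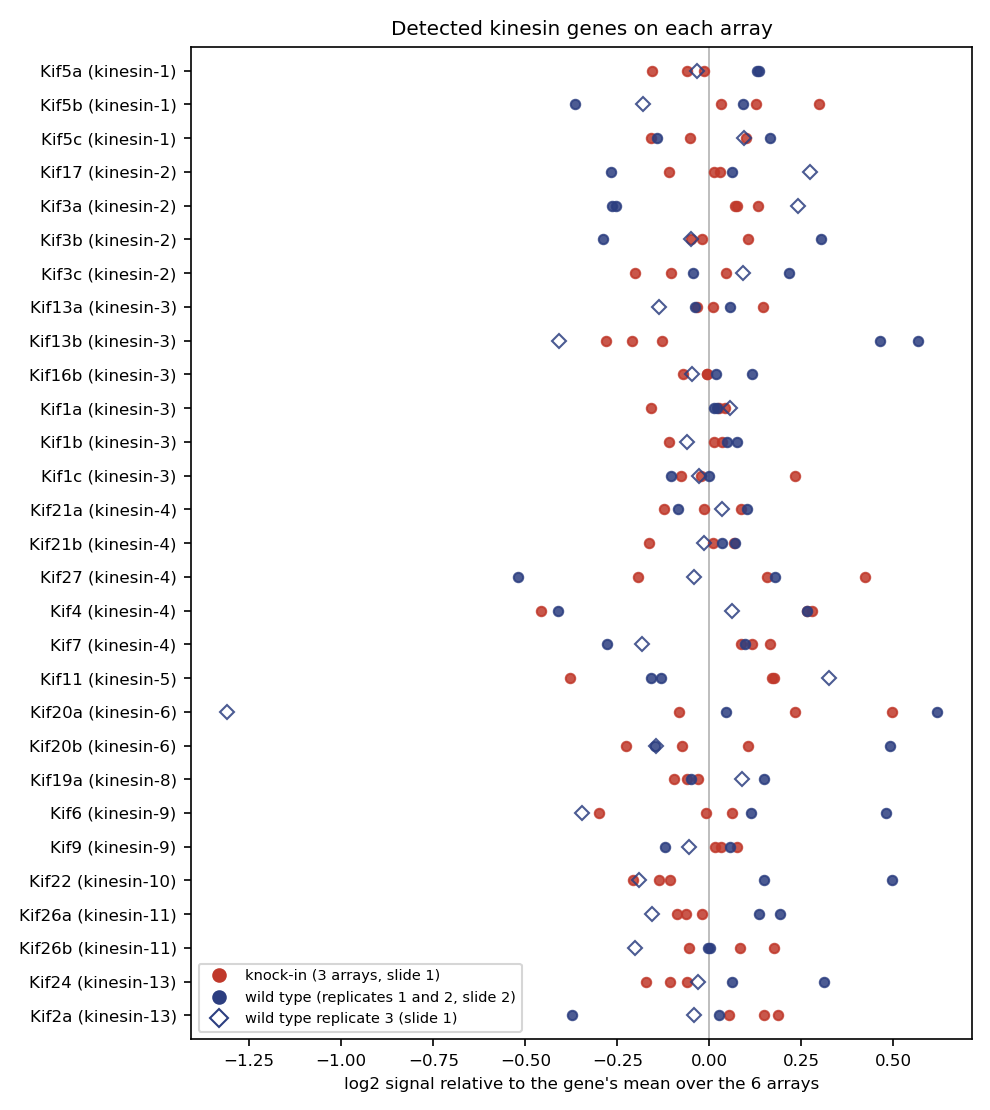
Log2 signal of each of the 29 detected kinesin genes on each of the 6 arrays, after subtracting the gene's own mean over the arrays (x axis, log2). Red points are the 3 knock-in arrays, filled blue points wild-type replicates 1 and 2, and open diamonds wild-type replicate 3, which shared slide 1 with the knock-in arrays. For 27 of the 29 genes red and blue points overlap.

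In 2 kinesins the groups did not overlap, or 6.9% of the 29, where 20.3% of all genes had groups that did not overlap, so the share was no larger than over the array as a whole. Of these, 1 was higher in knock-in (7.87% of all genes were) and 1 lower (12.5%). The count is small and moved with single arrays: it was 4 without knock-in replicate 1, 6 without knock-in replicate 3, 9 when wild-type replicate 1 was left out and 10 without the wild-type array of slide 1, while the share of all genes then rose to between 29% and 38.7%. Both genes belong to kinesin-13, the family that takes microtubules apart from their ends. Kif2a, which prunes axon branches in developing neurons, read 0.86, 0.82 and 0.73 in knock-in against 0.70, 0.30 and 0.63 in wild type. Every knock-in array was above every wild-type array, by 0.26 on average (SE 0.13, 1.20-fold), but the nearest pair of arrays was 0.73 and 0.70. Limma's adjusted p was 0.504 and the exact permutation p over arrays was 0.1, the smallest that 3 against 3 allow. Kif24, a centriolar member, read -4.79, -4.84 and -4.90 in knock-in against -4.42, -4.66 and -4.76 in wild type. It was lower in knock-in by 0.23 (SE 0.12) with limma's adjusted p = 0.508, and within slide 1 the difference was -0.08.

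Kinesin-1 comprises the heavy chains Kif5a, Kif5b and Kif5c, which haul mitochondria, vesicles and RNA granules, including granules that hold the FMR1 protein. Kif5a, a neuronal form, read 8.72, 8.82 and 8.86 in knock-in against 9.01, 9.01 and 8.85 in wild type. Wild-type replicate 3 lay among the knock-in arrays, and the difference of -0.15 (SE 0.10) was -0.04 within slide 1. Kif5c, the other neuronal form, read 6.11, 6.22 and 6.37 against 6.44, 6.13 and 6.37, so that the groups covered the same range. Kif5b, the form made in most tissues, read -0.09, 0.18 and 0.01 in knock-in against -0.03, -0.48 and -0.30 in wild type. Its difference of 0.30 (SE 0.15, 1.23-fold) had the smallest adjusted p of the family (limma, 0.494), and wild-type replicate 1 lay inside the knock-in range. Within slide 1 the Kif5b difference was 0.33. The direction for Kif5a and Kif5c depended on scaling: with quantile normalization they were higher in knock-in by 0.06 and 0.03, and with the authors' value table by 0.08 and 0.04.

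Kinesin-2 works as a trimer of Kif3a, Kif3b and the adaptor KAP3 in axons and cilia, with Kif3c as another neuronal partner, while Kif17 carries NMDA receptor vesicles into dendrites. Kif3a was tight in knock-in at 4.43, 4.49 and 4.43 and spread in wild type at 4.10, 4.09 and 4.60. The 2 lower wild-type values are those of slide 2, and the difference of 0.19 (SE 0.16) became -0.15 within slide 1. Kif3b read -0.42, -0.45 and -0.29 in knock-in, inside the wild-type range of -0.09, -0.68 and -0.44, with a difference of 0.02. Its 95% interval ran from -0.37 to 0.42. Kif3c read 4.53, 4.63 and 4.77 against 4.69, 4.95 and 4.82, lower in knock-in by 0.18 (SE 0.12, limma's adjusted p = 0.563) both over all arrays and within slide 1. For Kif17 the values were -0.34, -0.20 and -0.21 in knock-in against -0.50, -0.17 and 0.05 in wild type, again inside one another.

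Kinesin-3 holds the main carriers of synaptic vesicle precursors and dense-core vesicles, Kif1a and Kif1b, besides the endosomal motor Kif16b. Kif1a read 7.80, 8.00 and 7.98 in knock-in against 7.97, 7.98 and 8.01 in wild type, so 5 of the 6 arrays lay within 0.04 of one another and knock-in replicate 1 below them. The difference was -0.06 with a 95% interval from -0.30 to 0.18. By its brightest probe Kif1b read 6.19, 6.34 and 6.32 against 6.35, 6.38 and 6.24, a difference of -0.04 (interval -0.28 to 0.19). For these brightest probes both intervals lie inside a doubling, which does not show that the levels were equal, and a dimmer Kif1b probe, described further on, differed by more. Kif1c, which moves dense-core vesicles and Golgi membranes, read 2.80, 3.11 and 2.86 against 2.88, 2.78 and 2.85, a difference of 0.09. Kif13a, a carrier of endosomal and Golgi-derived vesicles, read 1.35, 1.53 and 1.39 against 1.44, 1.34 and 1.24. Kif16b read -0.25, -0.18 and -0.19 against -0.06, -0.16 and -0.23.

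Kif13b, also called GAKIN, binds the synaptic scaffold Dlg1 and had the most negative difference of the family. It read -3.91, -3.83 and -3.98 in knock-in against -3.13, -3.23 and -4.11 in wild type. Only the 2 wild-type arrays of slide 2 were high, and wild-type replicate 3 was the lowest of the 6 arrays. The difference of -0.41 (SE 0.26, limma's adjusted p = 0.542) therefore turned to 0.20 within slide 1. Kif22, a chromosome-binding motor, had the same arrangement at 0.01, 0.11 and 0.08 against 0.37, 0.72 and 0.03, with -0.30 over all arrays and 0.04 within slide 1. In Kif26a, one of the atypical kinesin-11 motors, -1.46, -1.42 and -1.48 stood against -1.21, -1.26 and -1.55. In 13 of the 29 kinesins (44.8%) wild-type replicate 3 was nearer to the knock-in mean than both arrays of slide 2, as in 42.1% of all genes. Slide 2 held wild-type arrays only, and whether slide had a part in these values was not tested.

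**Figure D2:**
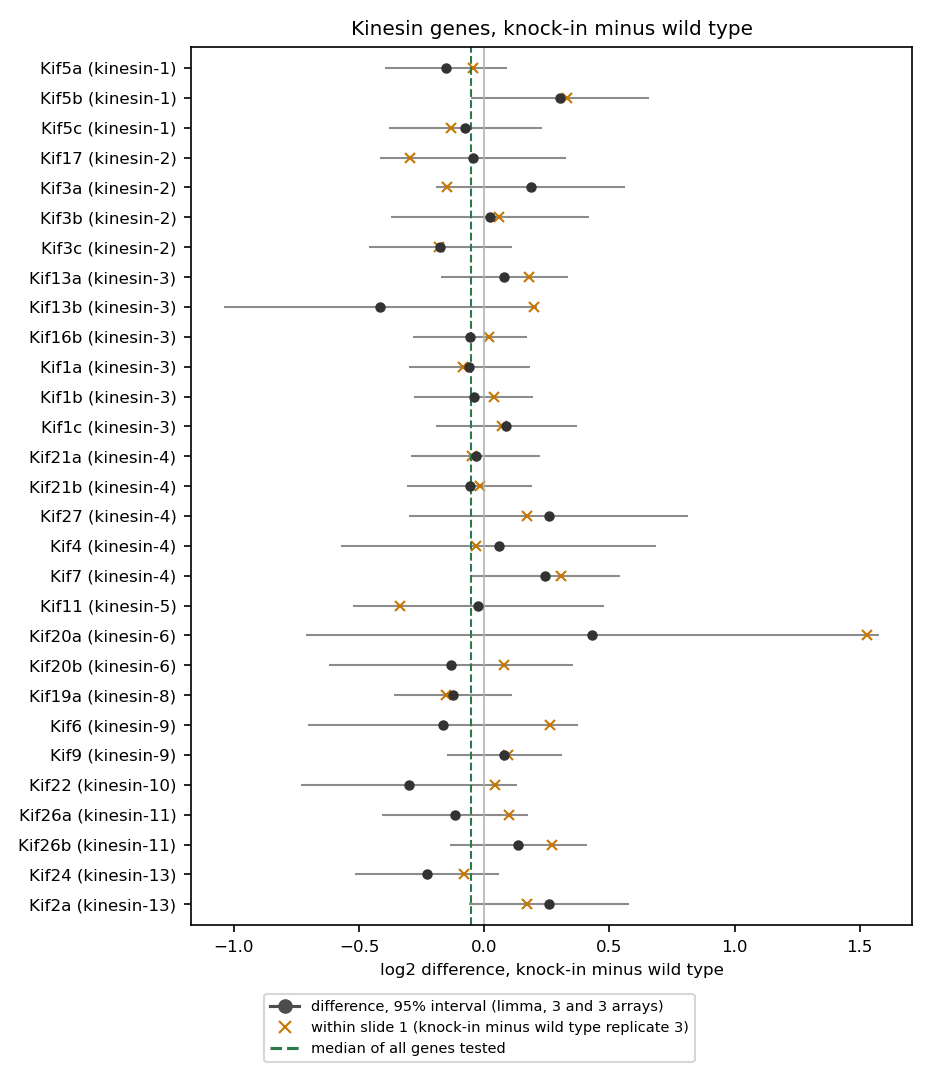
Knock-in minus wild type (x axis, log2) for the 29 detected kinesin genes, as points with 95% intervals from limma over 3 and 3 arrays. Crosses give the difference within slide 1, knock-in minus wild-type replicate 3, and the dashed line is the median over all genes tested, -0.05. Every interval includes 0, and Kif13b, Kif22, Kif3a and Kif6 are among the genes whose cross lies on the other side of 0 from the point.

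No gene of the remaining families passed the threshold either. In kinesin-4, Kif21a and Kif21b, which regulate microtubule growth in neurons, differed by -0.03 and -0.06, the hedgehog pathway member Kif7 by 0.24 (SE 0.12, limma's adjusted p = 0.502), its relative Kif27 by 0.26 (SE 0.23), and the chromosome motor Kif4 by 0.06 (SE 0.26). Kif7 read -3.76, -3.81 and -3.84 in knock-in against -3.83, -4.21 and -4.11 in wild type, with wild-type replicate 1 inside the knock-in range. Its sign turned to -0.14 with normexp background correction. Kif19a, which limits the length of cilia, differed by -0.12, and Kif26b by 0.14. Kif6 and Kif9 of motile cilia differed by -0.17 and 0.08 on their brightest probes.

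Besides Kif22, the detected kinesins of mitosis were Kif11, Kif20a and Kif20b, and the groups overlapped in each. Kif11, which pushes spindle poles apart, differed by -0.02 (SE 0.21), and Kif20b, of cytokinesis, by -0.13 (SE 0.20). Kif20a, the cytokinesis motor of the central spindle, read -3.62, -3.88 and -4.20 in knock-in against -3.50, -4.07 and -5.43 in wild type, a difference of 0.43 (SE 0.48, limma's adjusted p = 0.70). Wild-type replicate 3 alone was low, so that the difference within slide 1 was 1.53, and without that array it was -0.12. Markers of dividing cells were also lowest on that array: relative to the mean of all arrays their mean was 0.03, 0.38 and -0.05 in knock-in against 0.32, -0.19 and -0.47 in wild type. Mki67 read -2.22, -1.84 and -2.34 against -1.80, -3.36 and -3.35, so it was about equally low on wild-type replicates 2 and 3. Of the 10 measured markers 7 were higher in knock-in and 0 had groups that did not overlap, against 20.3% of all genes, and their part in the Kif20a values was not tested. In bulk RNA fewer cells of a type and less RNA per cell cannot be told apart.

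Several kinesins are covered by probes for different stretches or transcript variants, and the probes of a gene did not always move together. When every one of the 29318 kept probes was fitted on its own, 0 of the 45 kept kinesin probes passed the adjusted p of 0.05 (0.00682% of all probes did), 4 had an unadjusted p under 0.05, or 8.89% against 10.4% of all probes, and 5 had groups that did not overlap, or 11.1% against 19.9%. Of the 10 kinesin genes with more than 1 kept probe, 9 had probes of opposite sign, against 44.1% of the 5930 other genes with more than 1 kept probe. By number of probes this was 4 of 5 kinesins with 2 kept probes (38.8% of other genes) and 5 of 5 with 3 or more (58.1%). Many of these signs belong to differences near 0, as in Kif3b, Kif17, Kif1c and Kif3a, whose probes lay within 0.26 of one another. The exception with 1 sign was Kif1a, at -0.06 and -0.14.

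**Figure D3:**
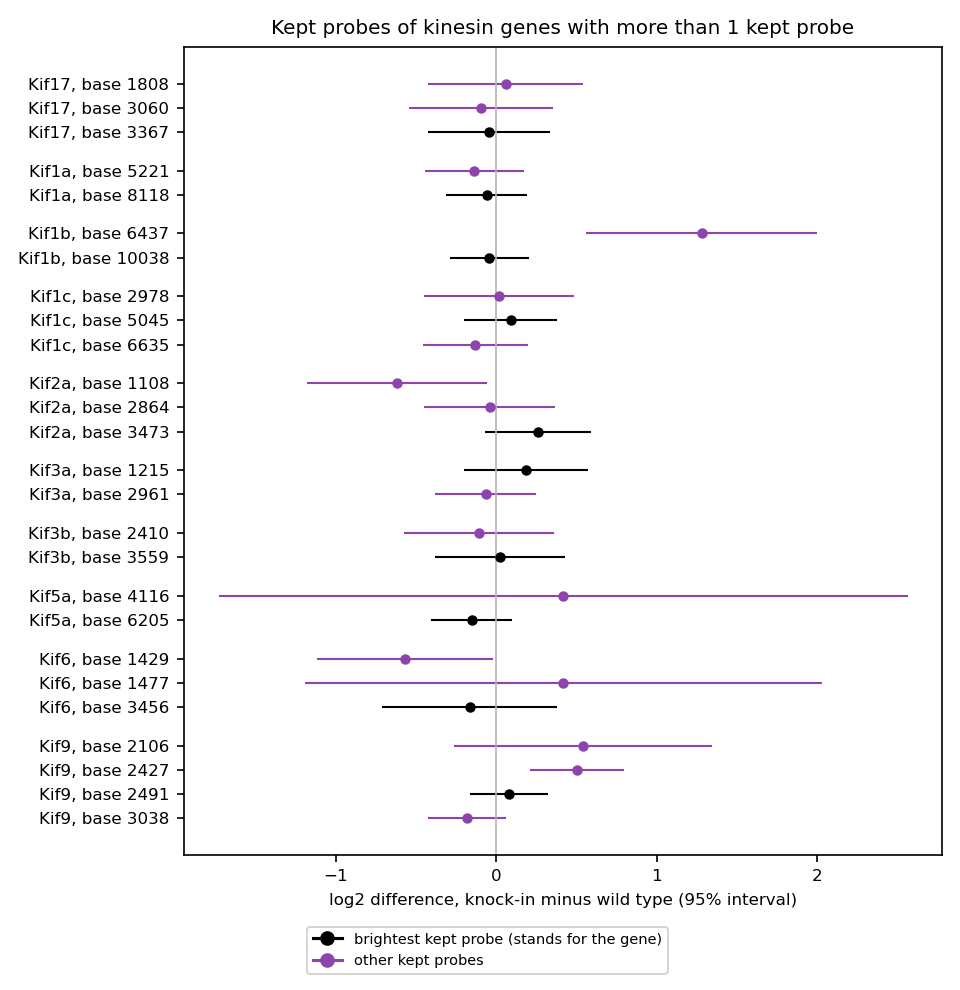
Knock-in minus wild type (x axis, log2) for each kept probe of the 10 kinesin genes with more than 1 kept probe, with 95% intervals from limma fitted over all kept probes. Black marks the brightest kept probe, which stands for the gene, purple the others, and bases are probe starts in the transcript named in the files. The variant 1 probe of Kif1b (base 6437, 1.28) stands apart from the variant 2 probe (base 10038, -0.04).

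Kif1b had the widest gap between its probes. As background, the gene makes a short and a long motor with different tails, of which the short one was described as a mitochondrial carrier and the long one as a carrier of synaptic vesicle precursors; the files name transcript variants 1 and 2 and do not say which product each encodes. The variant 2 probe, on chromosome 4 at 148550431 to 148550490 of build mm9, is the one described above. The variant 1 probe lies on the same chromosome at 148608412 to 148608471, 57981 bases away, and starts at base 6437 of its transcript. On this probe knock-in read -0.57, -0.26 and -0.91 and wild type -1.48, -2.48 and -1.62. All 3 knock-in arrays were above all 3 wild-type arrays, and the probe was well above background on 6 of 6 arrays. The difference was 1.28 (SE 0.30), or 2.43-fold, with limma's adjusted p = 0.431 over probes, unadjusted p = 0.0044 and an exact permutation p of 0.1. It was 1.04 within slide 1 and between 0.97 and 1.47 on leaving out 1 array.

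Within each array, the variant 1 probe minus the variant 2 probe was higher in knock-in by 1.32, without overlap (exact permutation p = 0.1). The variant 2 probe varied little, from 6.19 to 6.38, so the contrast largely restates the variant 1 probe and is no second test. Relative to its mean over the arrays this contrast was 0.76, 0.93 and 0.30 in knock-in against -0.31, -1.33 and -0.34 in wild type. A gap between probes of at least this size occurred in 77 of 5940 genes with more than 1 kept probe, or 1.3%. Kif1b was taken as the widest of 10 kinesins, so this share overstates how unusual it is. The probe was singled out after its values were seen and passed no adjusted threshold, and taking the mean of both probes for the gene changed the Kif1b difference from -0.04 to 0.62. Oligodendrocytes use Kif1b too, and their markers were higher in knock-in for 10 of 10 genes, with a median difference of 0.30. Relative to the mean of all arrays, the marker mean was 0.20, 0.37 and -0.06 in knock-in against 0.18, -0.48 and -0.20 in wild type. Mobp read 4.05, 4.18 and 3.78 against 3.84, 3.38 and 3.28. The marker groups overlapped in all 10 genes, where 20.3% of all genes had groups that did not, and the part of oligodendrocyte RNA in the Kif1b probe was not tested.

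**Figure D4:**
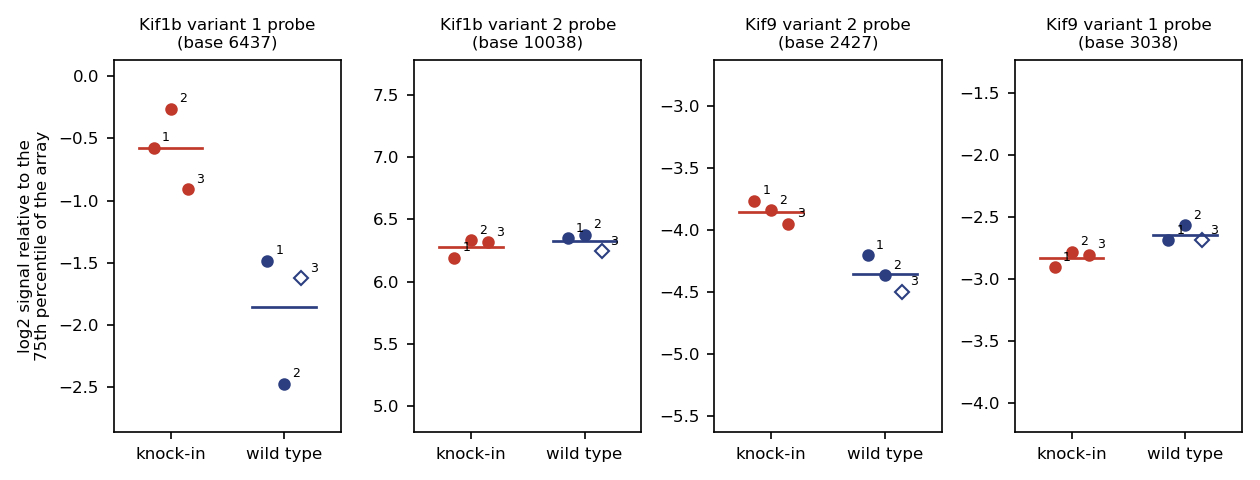
Log2 signal relative to the 75th percentile of the array (y axis, the same span of 3 in each panel) for single probes of Kif1b and Kif9 in knock-in (red) and wild type (blue, open diamond for replicate 3), with replicate numbers and group means as lines. The Kif1b variant 1 probe and the Kif9 variant 2 probe are higher in all 3 knock-in arrays, and the Kif9 variant 1 probe at base 3038 is lower in all 3.

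Kif9, a motor of motile cilia and sperm tails, also had probes on either side of 0. The variant 2 probe at base 2427, which spans chromosome 9 from 110423843 to 110427421, read -3.76, -3.84 and -3.95 in knock-in against -4.20, -4.36 and -4.50 in wild type. It was higher in knock-in by 0.50 (SE 0.12, 1.42-fold), with limma's adjusted p = 0.431 over probes. Of the variant 1 probes, the one at base 3038 (110426821 to 110426880) read -2.90, -2.78 and -2.80 against -2.68, -2.57 and -2.69, lower by 0.18 without overlap, and the one at base 2491 differed by 0.08. The other variant 2 probe, at base 2106, differed by 0.54 (SE 0.33). Within each array the base 2427 probe minus the base 3038 probe was higher in knock-in by 0.68 (exact permutation p = 0.1). These probes were picked after their values were seen and were already without overlap in opposite directions. Their contrast therefore had to separate the groups and is no further test. The sign of the base 2427 probe turned to -0.09 with normexp background correction. Ependymal cilia markers, whose cells carry motile cilia, had a mean of 0.11, 0.63 and -0.38 in knock-in against 0.50, -0.20 and -0.66 in wild type relative to all arrays, with 4 of 10 genes higher and a median difference of -0.05.

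Kif6 shows how far even overlapping probes can part. Its probes at bases 1429 and 1477 share a run of 47 of their 60 bases, which starts at 49894515 on chromosome 17. The probe at base 1429 has 12 bases of its own before that run and 1 after it, and the files place it from 49894503 to 49897747, so it joins separate stretches of the genome. The probe at base 1477 ends with 13 bases of its own and is unbroken from 49894515 to 49894574. The outer 30 bases of each are shown with the bases that the other probe lacks in capitals and shared bases in lower case, because the shared run makes up most of both probes.
Kif6 probe at base 1429, first 30 bases: GAGAGATGAAGAatatacaaagctcctagg
Kif6 probe at base 1477, last 30 bases: gagggacaacgagatcaGTATCCTTTCTCG
The probe at base 1429 read -4.66, -3.97 and -4.46 in knock-in against -3.78, -3.51 and -4.10 in wild type, a difference of -0.57 (SE 0.23). The probe at base 1477 read -4.01, -1.62 and -3.95 against -3.79, -3.03 and -4.01, a difference of 0.42 (SE 0.67) that rests on knock-in replicate 2. On that array the probe at base 1477 was the highest of the 6 by more than 1 log2 unit, while the probe at base 1429 was within the range of the others. The third kept probe, at base 3456, read -2.55, -2.48 and -2.84 against -2.06, -2.43 and -2.88.

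In Kif2a and Kif5a the dimmer probes differed from the brightest one as well. The Kif2a probe at base 1108, which joins 107772727 and 107773291 on chromosome 13, read -2.93, -3.29 and -3.16 in knock-in against -2.18, -2.35 and -3.0 in wild type, a difference of -0.62 (SE 0.23) against 0.26 for the probe at base 3473. Wild-type replicate 3 again lay among the knock-in arrays, and the difference within slide 1 was -0.12. The third Kif2a probe, at base 2864, differed by -0.04, and the mean of the 3 probes was lower in knock-in by 0.13, so the direction of Kif2a rests on the choice of probe. For Kif5a, the variant 2 probe at base 4116 read -4.83, -4.38 and -1.79 in knock-in against -4.77, -2.87 and -4.62 in wild type, with 1 high array in each group.

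The partners of the motors, from lists chosen for this family, were like the kinesins in that none of their genes passed limma's adjusted threshold. Groups without overlap were more frequent in each partner list than the 6.9% of the kinesins. Among 9 light chains, KAP3 and Kifc motors, 3 were higher and 6 lower, with a median difference of -0.06, and 2 had groups that did not overlap, or 22.2% against 20.3% of all genes. Kifc2, a motor that runs the other way along the microtubule, read 6.36, 6.61 and 6.62 against 6.68, 6.98 and 6.73, and Kifap3, the KAP3 adaptor of kinesin-2, 4.83, 4.81 and 4.91 against 5.00, 5.15 and 4.99. Both were lower in all 3 knock-in arrays, by 0.27 (SE 0.13) and 0.20 (SE 0.10), with limma's adjusted p = 0.492 and 0.495. The kinesin-1 light chains Klc1 and Klc2 had limma's adjusted p = 0.909 and 0.619.

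Cargo adaptors link motors to their loads, and all 29 on the list were detected, where 60.4% of all genes on the array were. In this set 11 were higher and 18 lower, the median difference was -0.05, as over all genes, and 7 had groups that did not overlap, or 24.1% against 20.3% of all genes. The members of smallest p were Grip1, which steers Kif5 to dendrites (-0.33, SE 0.13), the JIP1 scaffold Mapk8ip1 (-0.32, SE 0.13), the mitochondrial adaptor Trak2 (0.38, SE 0.16) and huntingtin, Htt (-0.28, SE 0.12). Each was without overlap, with limma's adjusted p between 0.450 and 0.468.

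Dynein, the motor that returns cargo to the cell body, and its regulators gave 8 higher and 18 lower of 26, with a median difference of -0.12. In 8 of them the groups did not overlap, or 30.8% against 20.3% of all genes, with 2 higher and 6 lower where 7.87% and 12.5% of all genes were. The dynactin subunit Dctn3 read 5.14, 5.38 and 5.19 in knock-in against 5.55, 6.08 and 5.72 in wild type (-0.54, SE 0.16), and Dctn1, the large dynactin subunit, 6.35, 6.41 and 6.41 against 6.52, 6.79 and 6.54 (-0.22, SE 0.11). The adaptor Bicd1 read -0.43, -0.29 and -0.68 against -0.70, -1.09 and -1.18 (0.52, SE 0.17), and Nde1 2.37, 2.57 and 2.31 against 2.25, 2.15 and 1.91 (0.31, SE 0.13). Limma's adjusted p for these 4 lay between 0.413 and 0.496. Wild-type replicate 2 was the extreme array for Dctn3 and Dctn1, and it had the highest dynein list mean of the 6 arrays, 0.11 above the mean of all, where the others lay between -0.07 and 0.00.

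**Figure D5:**
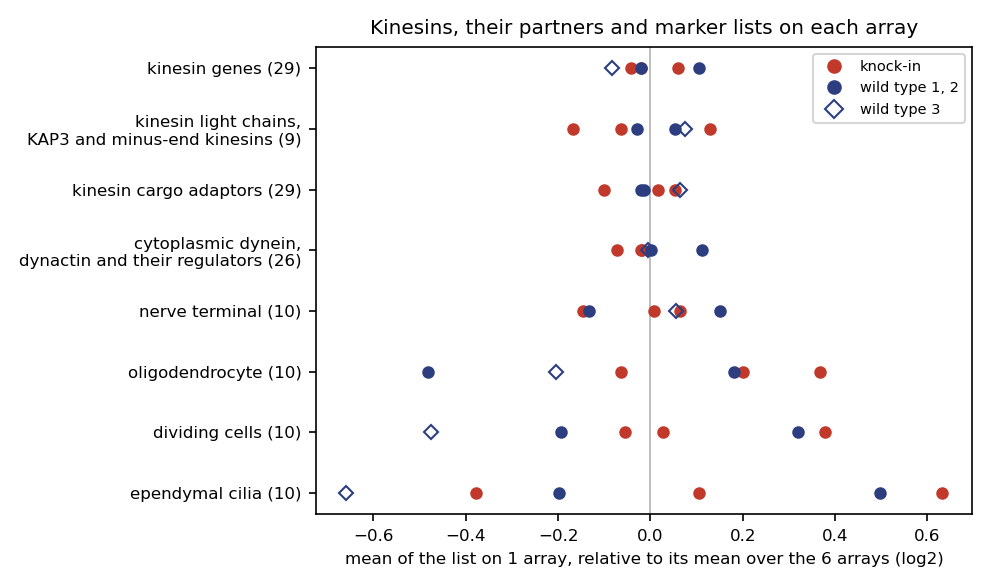
Mean of each gene list on each array, relative to the list's mean over the 6 arrays (x axis, log2), with the number of measured genes in brackets. Red points are knock-in, filled blue points wild-type replicates 1 and 2, and open diamonds wild-type replicate 3. The kinesin genes stay between -0.08 and 0.11, whereas markers of dividing cells, ependymal cilia and oligodendrocytes spread further on arrays of both groups.

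Averaged over the 29 detected genes, the kinesin signal relative to all arrays was -0.04, 0.06 and -0.02 in knock-in against 0.11, -0.02 and -0.08 in wild type, so that the groups overlapped. Nerve terminal markers had -0.15, 0.01 and 0.06 in knock-in against -0.13, 0.15 and 0.06 in wild type. Markers of striatal neurons spread widely in both groups, with 2.05, 0.57 and -0.99 in knock-in against 1.42, -1.53 and -1.51 in wild type. Replicate 1 was the highest array of each group. All 12 striatal markers were higher in knock-in, with a median difference of 0.83, the largest of the lists, and in 0 of them did the groups not overlap. Markers of astrocytes, microglia, endothelium and choroid plexus had median differences of -0.04, 0.12, -0.03 and 0.48, each without a gene past the adjusted threshold. The span of the striatal markers within each group was wider than the difference of any detected kinesin between groups, and its part in the kinesin values was not tested.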

How the data were processed

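Per the file headers, the scanner images were quantified by Agilent Feature Extraction 10.7.3.1 for a mouse design annotated on mm9, and the authors deposited spot intensity on a linear scale, background-subtracted and detrended within the array but not normalized between arrays. A deposited table of log2 values from the authors was used as an alternative; its columns ranked spots as the raw median intensity of the same array did (Spearman 1) and had medians between 6.553 and 6.563; the normalization behind it is not given in the sources at hand.

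The processed intensity of non-control spots was used. A spot flagged as an outlier was dropped only where its probe had an unflagged spot on the same array. With 59305 non-control spots for 55681 probes, most probes had 1 spot, so an odd reading need not have passed an outlier filter. Saturation, seen in 0 spots, was no ground for removal. Values were taken to log2 and scaled by the 75th percentile of their array, and spots of a probe were averaged. Probes well above background on at least 3 arrays were kept (29318), and the brightest of a gene's kept probes stood for the gene (20975 genes). Non-member probes were renamed through the RefSeq table of GRCm38.p6, of which 27235 matched by accession, 3581 by symbol and 565 by an older symbol; kinesins kept the files' names. Knock-in was set against wild type by limma 3.58.1 under R 4.3.3 (lmFit, eBayes, two-sided, Benjamini-Hochberg over all genes). Tested on simulated data of 20975 genes, the fit recovered 47% of genes changed by 1 log2 unit and 94% of those changed by 2, and called 14 unchanged genes. The simulated noise had the same spread in both groups and no slide difference, unlike the arrays, so these shares may not hold for them. The number of arrays limits the precision. No set test was made.

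Values on every array are given for detected members of kinesin-1, -2 and -3 and for other members without overlap or with an unadjusted p under 0.05, other members in part, with up to 4 genes of smallest p per partner list. Kif7, Kif20a, Kif22, Kif26a and single probes beyond this rule were named after their values were seen. Members and lists were chosen with earlier results of these data known. Alternatives were background correction, scaling, filter, probe choice, slide, replicate block, the value table and leaving out arrays.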

Additional observations from a re-analysis of the deposited data

How the results depend on the processing

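No kinesin gene passed the threshold under any alternative run with more than 1 array per group (0 in each). This includes every kept probe on its own, an alternative chosen after seeing the data. Over these runs the smallest limma adjusted p of a kinesin gene detected in the main fit was 0.209. Among single probes, the Kif2a probe at base 1108 had limma's adjusted p = 0.192 without wild-type replicate 3. The kinesin median difference was 0.036 with quantile normalization, 0.041 with slide as a block and on slide 1 alone, 0.035 with the authors' value table, and between -0.069 and 0.0053 on leaving out 1 array. The median over all genes then also moved, to -0.02, -0.03, -0.03 and -0.01. Slide as a block and slide 1 alone give the same difference for every gene, because slide 2 held wild-type arrays only. Kinesins without overlap numbered 5 with normexp (25.6% of all genes), 7 of 37 with no filter (33.2%), 1 with the value table (18.9%), 17 on slide 1 alone, where 1 wild-type array leaves 62.3% of all genes without overlap, and between 2 and 10 on leaving out 1 array. The replicate block, with replicate number as a term, cannot change a difference, because each number occurs once per group. Its median was therefore -0.04 as before, and it changed no kinesin call (0). Deviations of same-numbered arrays from their group means had correlations of 0.40, -0.02 and 0.25 over genes, and those of differently numbered arrays lay between -0.40 and 0.15. Knock-in replicates 1 and 3 correlated best with the wild-type array of the same number. Knock-in replicate 2 correlated best with wild-type replicate 3, at 0.07. These values do not settle whether the numbers mark pairs, and the main fit used no pairing.

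Of 29 genes 5 kept their sign throughout (Kif13a, Kif19a, Kif24, Kif3c and Kif5b). Slide as a block and slide 1 alone, the same difference by design, gave 0.20 for Kif13b, 0.0195 for Kif16b, 0.039 for Kif1b, 0.0802 for Kif20b, 0.041 for Kif22, 0.097 for Kif26a, 0.26 for Kif6, -0.15 for Kif3a and -0.033 for Kif4. Quantile normalization gave 0.031 for Kif11, 0.10 for Kif1a, 0.061 for Kif1b, 0.036 for Kif21a, 0.059 for Kif5a and 0.026 for Kif5c. The value table gave 0.12 for Kif1a, 0.033 for Kif1b, 0.0037 for Kif21a, 0.085 for Kif5a and 0.037 for Kif5c. Normexp gave -0.15 for Kif20a, -0.067 for Kif26b, -0.031 for Kif27, -0.0018 for Kif3b, -0.13 for Kif4, -0.14 for Kif7, -0.026 for Kif9 and -0.092 for its base 2427 probe. The mean of all kept probes gave 0.62 for Kif1b, -0.0078 for Kif1c, -0.13 for Kif2a, -0.042 for Kif3b and 0.13 for Kif5a. Leaving out 1 array turned Kif11 (-0.12 to 0.16), Kif17 (-0.19 to 0.0799), Kif1a (-0.095 to 0.0053), Kif1b (-0.083 to 0.0019), Kif1c (-0.0057 to 0.15), Kif20a (-0.12 to 0.85), Kif20b (-0.24 to 0.081), Kif21a (-0.086 to 0.0198), Kif21b (-0.11 to 0.00902), Kif3b (-0.12 to 0.18), Kif4 (-0.13 to 0.30) and Kif6 (-0.38 to 0.033). The cause of these turned signs was not tested. The Kif1b variant 1 probe stayed higher in each alternative run on single probes, from 0.97 to 1.47. Signal over background limits Kif11 and Kif20a, whose probes were well above background on 5 of 6 arrays, but other kinesins were dim too. Kif24 passed on 6 of 6 arrays, yet its means of -4.84 in knock-in and -4.61 in wild type were near those of Kif11, -4.74 and -4.72.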
